A study of Oryza sativa with 20 samples.

Results

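The change in the rice leaf transcriptome between the first hour and 6 h of feeding by the rice leaf folder Cnaphalocrocis medinalis was measured by setting the 4 libraries of leaves fed on for 6 h directly against the 4 libraries of leaves fed on for 1 h. These are 8 of 20 libraries. The other 12 hold 4 each of unfed leaves (0 h) and of leaves fed on for 12 and 24 h. All plants were Oryza sativa strain Minghui 63, 5 weeks old, with a Parafilm bag around the second leaf from the top. In the fed plants the bag held 1 larva of instar 3 that had been starved for 2 h, and in the 0 h plants it held no insect. Each library pooled leaves from 5 plants, so that plant to plant variation is averaged within a library. Larvae were put on at different times and harvest was at a single time for all leaves, so the 1 h and 6 h leaves differ in the hours of feeding and not in the hour of harvest. Because whole leaf tissue was sequenced, fewer cells of a type and less RNA per cell cannot be told apart.

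A chewing caterpillar wounds the leaf and also leaves oral secretions in the wound. In plants, calcium influx, calcium-sensing proteins and mitogen-activated protein kinases act soon after such damage, and they are followed by the synthesis of jasmonic acid (JA). JA is made from linolenic acid through lipoxygenase (LOX), allene oxide synthase (AOS), allene oxide cyclase (AOC) and 12-oxophytodienoate reductase (OPR), and JAR enzymes join it to isoleucine, which gives the active hormone. The hormone leads to the destruction of JAZ repressor proteins, and the JAZ genes are themselves among the genes that the hormone switches on. JAZ transcripts are therefore widely used as a readout of JA signaling.

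The leaf at 6 h had higher levels than at 1 h at many more loci than it had lower ones, but most of these differences were small, and their balance depended on how libraries were scaled to each other. Expression was measured as FPKM, the number of fragments on a gene relative to the gene's length and the size of the library. Of 37830 loci with an OS identifier (the rice gene models), 29495 were above 0 in at least 1 library and 20343 passed a filter on low values. Differentially expressed genes (DEGs) were called by limma-trend on log2(FPKM + 1), at a false discovery rate (FDR, Benjamini-Hochberg) under 0.05. At 6 h, 2765 OS loci (13.6% of those tested) were higher than at 1 h and 890 (4.37%) were lower. The median log2 difference was 0.47 among the higher loci (quartiles 0.34 and 0.67) and -0.45 among the lower loci (quartiles -0.62 and -0.33). An absolute log2 difference over 1 was reached by 224 higher and 52 lower loci, and one over 2 by 11 and 4. All of these are differences of log2(FPKM + 1), in which the change of a locus with low FPKM comes out too small. All 4 libraries at 6 h lay above all 4 at 1 h for 2230 of the 2765 higher loci, and below them for 740 of the 890 lower loci. With FPKM divided by median-of-ratios factors, which set the typical locus to no change, 1248 OS loci were higher (6.13%) and 1689 lower (8.3%). With upper-quartile factors the counts were 1524 (7.49%) and 1292 (6.35%). Higher loci thus made up 75.6% of the DEGs as deposited, 42.5% with median-of-ratios factors and 54.1% with upper-quartile factors. With all 3 scalings, 1248 loci were higher and 890 lower. These fits took the spread of each locus from all 20 libraries. With the 1 h and 6 h libraries fitted alone, 1856 OS loci were higher and 629 lower. In the fit of all times, leaving out 1 h replicate 2 lowered the count of higher loci to 1832, leaving out 1 h replicate 3 to 1743, and leaving out 6 h replicate 2 to 1754.

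**Figure D1:**
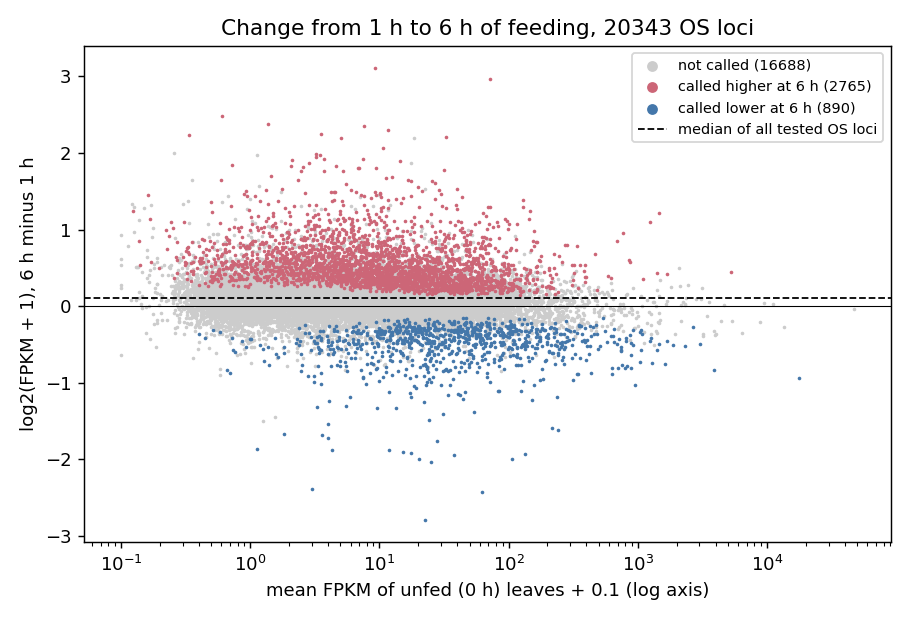
Difference in log2(FPKM + 1) between 6 h and 1 h (mean of 4 libraries each) for each of the 20343 OS loci tested, against the mean FPKM of unfed leaves on a log axis. Red points are the 2765 loci called higher, blue points the 890 called lower, and the dashed line is the median over all points (0.11), which lies above 0.

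The median level was higher at 6 h than at 1 h, though not that of the most abundant loci. Over all 24058 identifiers tested, the median log2 difference was 0.10, and for OS loci 0.11. With median-of-ratios factors it was -0.00, and with upper-quartile factors 0.03, so values with median-of-ratios factors are given below as the change relative to this shift. The medians of the single libraries, each relative to the mean at 1 h, lay between -0.041 and 0.042 at 1 h and between 0.068 and 0.133 at 6 h, with no overlap (exact permutation test, two-sided, p = 0.029, which is the minimum for 4 against 4 libraries, and 0.038 after adjustment over 4 library measures). With no filter on low values the shift was 0.028, since many identifiers at or near 0 then enter the median. The 100 OS loci with the highest FPKM in unfed leaves took 23.2% ± 1.36 (SD, n = 4) of the fragments on genes at 1 h and 20.6% ± 1.47 (SD, n = 4) at 6 h, with ranges of 21.8 to 24.4% and 18.6 to 21.7% (same exact test, p = 0.029, adjusted 0.038). At the same time more loci reached 1 FPKM. The number of OS loci at 1 FPKM or more was 17176 to 17616 in the 1 h libraries and 17690 to 18027 in the 6 h libraries (same exact test, p = 0.029, adjusted 0.038). In all 4 libraries, 16543 OS loci reached 1 FPKM at 1 h and 17048 did so at 6 h. A count at a fixed FPKM moves with the shift of the median, so it is not a separate result. It was not repeated with median-of-ratios factors. FPKM is a share of the library, so a smaller share for the most abundant loci raises the values of the others, and the part of this in the count of higher loci was not tested apart from the scaling alternatives. The depth of the libraries was 17796509 to 20175848 fragments on genes at 1 h and 18510115 to 18708493 at 6 h, and did not differ beyond the spread between libraries (exact permutation test, p = 0.31).

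**Figure D2:**
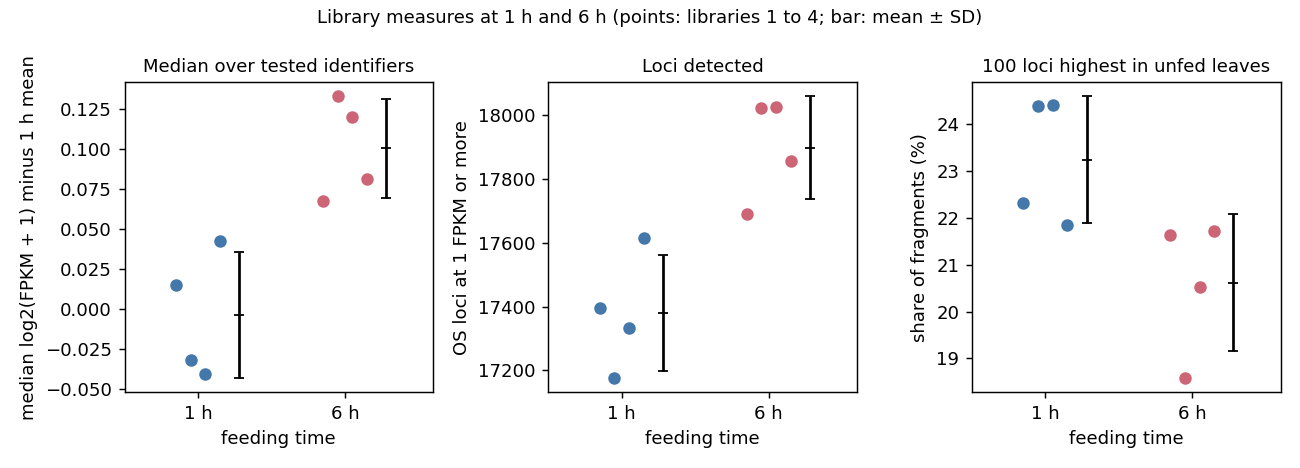
Each point is a library, 4 at 1 h (blue) and 4 at 6 h (red), with the mean and SD beside them. The panels give the median over the tested identifiers of log2(FPKM + 1) minus the 1 h mean, the number of OS loci at 1 FPKM or more, and the share of fragments on the 100 OS loci highest in unfed leaves. The 6 h libraries lie above all 1 h libraries in the first and second panel and below all of them in the last.

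Loci that were lower at 6 h were more frequent among the abundant transcripts of the leaf, while loci that were higher were found at all levels. Among OS loci under 1 FPKM in unfed leaves, 0.441% were lower at 6 h than at 1 h, and this share was larger in each class of higher level, up to 19.8% of the 771 loci between 100 and 300 FPKM and 25.7% of the 303 loci at 300 FPKM or more. The share of higher loci showed no such order. It was 7.97% under 1 FPKM, between 11.8% and 16.3% in the classes from 1 to 300 FPKM, and 8.91% at 300 FPKM or more. The median log2 difference was 0.12 in the lowest class and -0.11 in the highest. With median-of-ratios factors the share of lower loci went from 0.543% in the lowest class to 35.3% in the highest, and the median log2 difference from 0.07 to -0.25. The classes rest on the 0 h libraries, which give neither mean of the comparison but enter its fit, the filter on low values and the scaling factors. Low loci carry more counting error, so a difference of a given size is less readily called there. A locus near the floor of log2(FPKM + 1) also has little room to fall. Loci low in unfed leaves can pass the filter through other times at which they are higher. The shares of higher and of lower loci in the lowest classes are therefore not on equal terms. At 300 FPKM or more, 27 loci were higher and 78 lower.

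**Figure D3:**
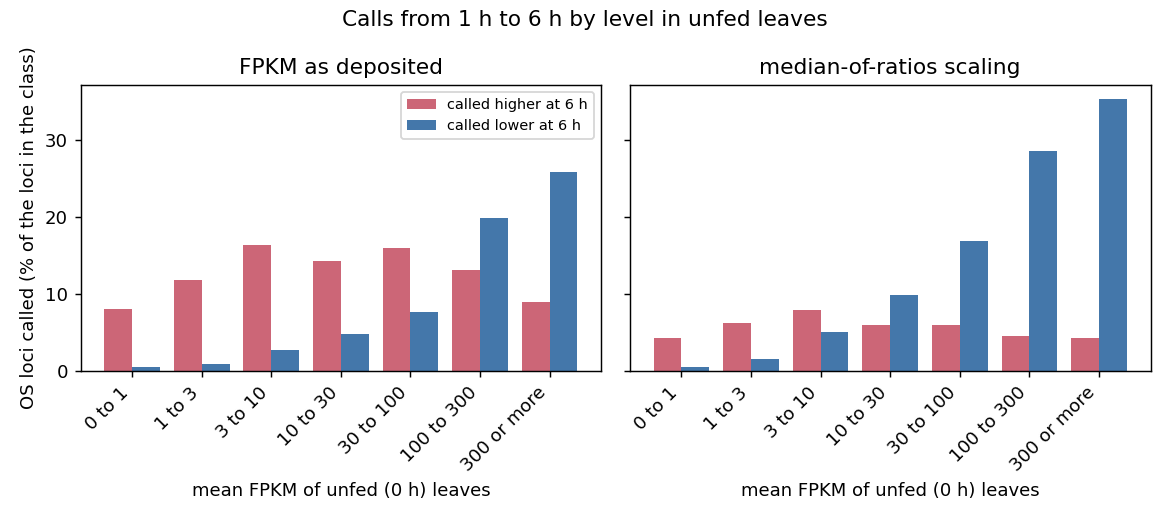
Share of the OS loci in each class of mean FPKM in unfed leaves that were called higher (red) or lower (blue) at 6 h than at 1 h, for FPKM as deposited and after median-of-ratios scaling. The share of lower loci is larger in each higher class in both panels, and reaches 25.7% and 35.3% in the highest.

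The transcript that lost most FPKM was an OS locus on chromosome 11 with 14334 to 18388 FPKM in the 1 h libraries and 7846 to 9667 in the 6 h libraries. The 2 groups lay far apart, and the mean at 6 h was also below that of unfed leaves, at 17623 FPKM. The log2 difference was -0.94 ± 0.15 (SE; FDR = 0.00049, limma-trend), and -1.07 with median-of-ratios factors. At 12 and 24 h its mean was 26522 and 22161 FPKM. The largest gain in FPKM was at an OS locus on chromosome 1, with 3919 to 5226 FPKM at 1 h and 5607 to 7300 at 6 h. Its log2 difference was 0.44 ± 0.11 (SE; FDR = 0.013, limma-trend), and the call was lost with median-of-ratios factors (0.30, FDR = 0.15). Both loci were chosen after their values were seen, and neither carries a gene name in the values analysed.

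Few loci went from no fragments to many, or the reverse, between the 2 times. With 0 fragments in all 4 libraries at 1 h, 14 OS loci held 10 or more fragments over the 4 libraries at 6 h, 186 at most, and only 1 of them was called. The reverse was found for 6 OS loci, with 43 fragments at most, none of them called. Low counts limit these calls. The loci that were higher were found on all 12 chromosomes, from 12.6% of the loci tested on chromosome 2 to 14.9% on chromosome 1, and the lower loci from 2.52% on chromosome 12 to 5.35% on chromosome 9. In the order of the identifiers along a chromosome, the next tested locus was also higher for 566 of 2761 higher loci (20.5%). It was also lower for 100 of 890 lower loci (11.2%). Of all OS loci tested, 13.6% were higher and 4.37% lower. There were 93 runs of 3 or more neighbouring higher loci, 6 at most, on chromosomes 4 (a pair of such runs) and 8, and 13 runs of lower loci, 5 at most, on chromosome 4. The number of runs that these overall shares alone would give was not computed. Neighbouring loci can share reads where they overlap, and the part of such loci in these runs was not tested. By gene length, the median log2 difference fell from 0.15 in the shortest of 5 equal classes of loci to 0.08 in the longest.

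The largest single rise and falls were found at loci with no gene name in the values analysed. These loci were picked as the largest changes among DEGs whose groups did not overlap. Their size and the separation of their groups are thus conditions of the choice. OS09G0128400, on chromosome 9, had 2.65, 4.02, 3.47 and 2.46 FPKM in 1 h replicates 1 to 4 and 28.2, 35.6, 37.0 and 37.1 FPKM in 6 h replicates 1 to 4. All 6 h libraries were thus several-fold above all 1 h libraries, with a log2 difference of 3.10 ± 0.19 (SE; FDR = 3.1e-08, limma-trend). The mean of this locus was 9.12 ± 2.38 FPKM (SD, n = 4) in unfed leaves and 4.22 ± 0.604 and 6.84 ± 2.18 FPKM at 12 and 24 h, so the 6 h libraries stood above all others in the series. OS03G0437600, on chromosome 3, had 28.7, 9.95, 27.9 and 53.3 FPKM at 1 h and 345.1, 168.8, 220.1 and 143.9 FPKM at 6 h. Its groups did not overlap, but its libraries at 12 h ranged from 16.4 to 339.9 FPKM and those at 24 h from 7.98 to 224.4. The log2 difference was 2.96 ± 0.94 (SE; FDR = 0.039, limma-trend). It was not called with median-of-ratios factors (2.83, FDR = 0.056), with upper-quartile factors (FDR = 0.055) or with no filter on low values (FDR = 0.064). The call was also lost without any 1 of 7 of the 8 libraries, with the FDR at 0.12 without 1 h replicate 2. Of the fits that left out 1 library, only that without 1 h replicate 4 kept the call (FDR = 0.030).

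Both of the largest falls were at loci whose 1 h libraries all lay above those of unfed leaves. OS02G0758000, on chromosome 2, had 73.6, 44.4, 50.7 and 101.1 FPKM at 1 h and 8.33, 8.80, 8.71 and 7.82 FPKM at 6 h. The 6 h libraries were close to each other and below all libraries of unfed leaves, which held 17.1 to 25.1 FPKM. The log2 difference was -2.79 ± 0.30 (SE; FDR = 1.1e-05, limma-trend). OS01G0840100, on chromosome 1, went from 148.1, 83.2, 109.5 and 147.7 FPKM at 1 h to 25.6, 23.6, 19.0 and 17.5 FPKM at 6 h, again with all 6 h libraries below the 55.5 to 67.1 FPKM of unfed leaves. The log2 difference was -2.43 ± 0.16 (SE; FDR = 4.2e-08, limma-trend). Both calls and that of OS09G0128400 held with median-of-ratios and upper-quartile factors and without each of the 8 libraries in turn. These 4 loci were the 2 largest rises and 2 largest falls among DEGs that averaged 10 or more fragments in a library and whose groups did not overlap.

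Of 17 loci that the study names, 16 could be tested, and 5 of them were higher at 6 h than at 1 h and 0 lower, beside 13.6% and 4.37% of all OS loci. Of the 16, 15 had a positive log2 difference, and the median was 0.41 beside 0.11 for all OS loci. With median-of-ratios factors 3 of the 5 were called, and with upper-quartile factors 4. The 9 loci named in the study's text and the 8 whose family is given by its scheme of the JA pathway were picked with the response of these same libraries in view, so their direction is not independent evidence. All 4 libraries at 6 h lay above all 4 at 1 h for 4 of the 16, which were among the 5 called, and below them for 0, beside 16.2% and 5.01% of all OS loci. In 11 of the 17, 6 h replicate 1 was the lowest of the 6 h libraries, and in 10 of them 6 h replicate 2 was the highest. Over all tested identifiers these were also the 6 h libraries with the lowest and the highest median log2 level (0.068 and 0.133 relative to the 1 h mean).

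Of the 4 named JAZ repressors 2 were called, beside 13.6% of all OS loci called higher. The largest log2 differences of the named loci tested were at 3 of these JAZ loci. OS09G0439200 had 45.4, 69.4, 67.1 and 50.4 FPKM at 1 h and 116.8, 195.9, 163.1 and 103.8 FPKM at 6 h, beside 8.04 to 13.6 FPKM in unfed leaves. All 6 h libraries exceeded all 1 h libraries, which in turn exceeded all unfed ones. The log2 difference from 1 h to 6 h was 1.28 ± 0.33 (SE; FDR = 0.013, limma-trend), and 1.15 (FDR = 0.027) with median-of-ratios factors, and the call held without each of the 8 libraries in turn. OS03G0180900 had 19.6, 24.0, 37.6 and 16.9 FPKM at 1 h and 27.4, 157.3, 174.0 and 65.5 FPKM at 6 h, where replicate 1 lay within the range at 1 h and the other 3 above it. Its log2 difference was 1.80 ± 0.54 (SE; FDR = 0.030, limma-trend), and 1.67 (FDR = 0.048) with median-of-ratios factors. This call was lost with the 1 h and 6 h libraries fitted alone (FDR = 0.081) and without 1 h replicate 1 (FDR = 0.069), 2 (0.060) or 4 (0.058) or 6 h replicate 2 (0.10) or 3 (0.099).

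The other JAZ loci had wide spreads at 6 h and were not called. OS04G0395800 had 0.539, 1.06, 2.51 and 0.787 FPKM at 1 h and 0.872, 8.81, 10.9 and 2.62 FPKM at 6 h (log2 difference 1.33 ± 0.64, SE; FDR = 0.17, limma-trend). OS03G0181100 had 105.6, 148.8, 157.6 and 111.0 FPKM at 1 h and 52.5, 418.7, 210.1 and 211.7 FPKM at 6 h (log2 difference 0.46 ± 0.65, SE; FDR = 0.68, limma-trend), which was 1.04 without 6 h replicate 1 and 0.05 without 6 h replicate 2. In both loci 6 h replicate 1 stood among or below the 1 h libraries and the other 3 above all of them. In 3 of the 4 JAZ loci 6 h replicate 1 was the lowest of its group.

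None of the 3 tested loci for enzymes of JA synthesis was called between 1 h and 6 h, when 13.6% of all OS loci were higher and 4.37% lower. The 3 are single loci, and other members of their families were not examined by name. Against unfed leaves, the study reports induction of most JA pathway genes. It also reports that genes raised at 6 h were enriched in alpha-linolenic acid metabolism. Beyond the sequencing, it measured higher levels of JA and its isoleucine conjugate in fed than in control plants. A set of JA pathway genes was checked there by quantitative PCR. AOC OS03G0438100, which closes the ring of the JA precursor, had 193.2, 233.5, 233.5 and 211.5 FPKM at 1 h and 206.5, 370.2, 334.0 and 240.3 FPKM at 6 h. In this locus 3 of the 6 h libraries were above all 1 h libraries and replicate 1 was not, with a log2 difference of 0.36 ± 0.18 (SE; FDR = 0.18, limma-trend), which was 0.23 without 6 h replicate 2. LOX OS02G0194700, of the family that oxidizes linolenic acid, was the only named locus with a negative difference (-0.28 ± 0.18, SE; FDR = 0.32, limma-trend), with 201.4 to 300.9 FPKM at 1 h and 149.4 to 211.6 FPKM at 6 h. Without 1 h replicate 2, the library at 300.9 FPKM, the difference was -0.14, and without 6 h replicate 3 it was -0.18. OPR OS01G0369900, of the family that reduces the cyclized precursor, was low at both times, with 1.03 to 2.25 FPKM at 1 h and 1.44 to 2.74 FPKM at 6 h (log2 difference 0.27 ± 0.15, SE; FDR = 0.25, limma-trend, and 0.14 without 1 h replicate 4). AOS OS03G0767000, of the family that acts between LOX and AOC, did not pass the filter on low values. It had 0.052 to 0.386 FPKM at 1 h and 0.107 to 0.569 FPKM at 6 h, from 2 to 21 fragments per library, with overlapping groups.

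The JAR locus OS01G0221000, of the family that conjugates JA to isoleucine, was higher at 6 h. It had 1.44, 1.38, 2.33 and 3.00 FPKM at 1 h and 3.66, 3.02, 3.59 and 4.34 FPKM at 6 h. The groups did not overlap, but the lowest library at 6 h was close to the highest at 1 h, and unfed leaves, with 2.61 to 4.14 FPKM, lay near the level at 6 h. The log2 difference was 0.64 ± 0.17 (SE; FDR = 0.016, limma-trend), and 0.54 (FDR = 0.045) with median-of-ratios factors. It rested on 13 to 39 fragments per library, and the call was lost without 1 h replicate 1 (FDR = 0.055) or 2 (0.059) or 6 h replicate 4 (0.053) and with the 1 h and 6 h libraries fitted alone (FDR = 0.064). At 12 and 24 h the locus had means of 4.92 ± 1.21 and 8.21 ± 0.726 FPKM (SD, n = 4).

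**Figure D4:**
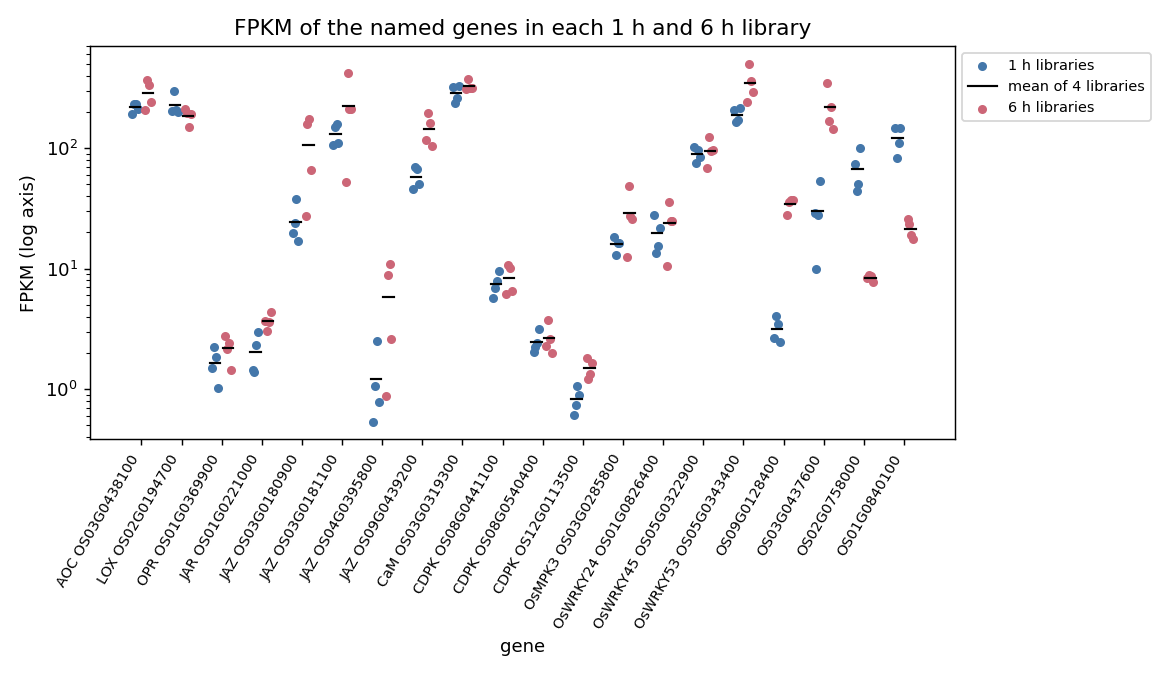
FPKM on a log axis of the 16 named loci that were tested and of the 4 loci with the largest changes, in each of the 4 libraries at 1 h (blue) and at 6 h (red), with the mean of 4 libraries as a bar. The groups are apart for JAR OS01G0221000, JAZ OS09G0439200, CDPK OS12G0113500, OsWRKY53 and the 4 loci on the right, and the 6 h libraries spread widely for the other JAZ loci.

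Kinases and transcription factors of early defense gave 1 call among 4, while 13.6% of all OS loci were called higher. With 4 loci, 1 call cannot be told apart from that share. OsWRKY53, OS05G0343400, is a WRKY transcription factor known in rice for its part in the response to chewing insects. It had 209.2, 164.2, 169.8 and 214.9 FPKM at 1 h and 243.0, 501.2, 358.6 and 292.1 FPKM at 6 h. All 6 h libraries exceeded all 1 h libraries, with a log2 difference of 0.83 ± 0.25 (SE; FDR = 0.030, limma-trend). The call was lost with median-of-ratios factors (0.70, FDR = 0.057) and without 1 h replicate 2 (FDR = 0.082) or 3 (0.080) or 6 h replicate 2 (0.11) or 3 (0.070). OsMPK3, OS03G0285800, a mitogen-activated protein kinase of defense signaling, had 18.2, 13.1, 16.5 and 16.3 FPKM at 1 h and 12.6, 48.8, 27.5 and 26.05 FPKM at 6 h. Replicate 1 at 6 h was below all 1 h libraries and the other 3 were above them, and the log2 difference of 0.67 ± 0.31 (SE; FDR = 0.15, limma-trend) was called only without 6 h replicate 1 (1.00, FDR = 0.020), and without 6 h replicate 2 it was 0.37 (FDR = 0.45). The WRKY factors OsWRKY24, OS01G0826400, and OsWRKY45, OS05G0322900, had log2 differences of 0.21 ± 0.36 and 0.06 ± 0.23 (SE; FDR = 0.74 and 0.88, limma-trend). Both turned negative without 6 h replicate 2, and OsWRKY45 also with median-of-ratios and upper-quartile factors and without 1 h replicate 2.

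Of 4 loci of calcium sensing, 1 was called, beside 13.6% of all OS loci called higher. A count of 4 is too small to set against that share. The calcium-dependent protein kinase (CDPK) OS12G0113500 had 0.610, 0.736, 1.07 and 0.901 FPKM at 1 h and 1.81, 1.22, 1.33 and 1.65 FPKM at 6 h, with no overlap. This level at 6 h was within the 1.18 to 1.94 FPKM of unfed leaves. The log2 difference of 0.45 ± 0.14 (SE; FDR = 0.037, limma-trend) came from 24 to 66 fragments per library and was lost with median-of-ratios factors (0.37, FDR = 0.10), with upper-quartile factors (FDR = 0.087) and with the 1 h and 6 h libraries fitted alone (FDR = 0.051). It was also lost without 1 h replicate 1 (FDR = 0.10) or 2 (0.088) or 6 h replicate 1 (0.089), 3 (0.054) or 4 (0.089). The calmodulin (CaM) locus OS03G0319300, whose protein binds calcium and passes the signal on to other proteins, was abundant at both times, with 236.2 to 328.6 FPKM at 1 h and 309.1 to 377.2 FPKM at 6 h (log2 difference 0.21 ± 0.11, SE; FDR = 0.22, limma-trend). It was 0.12 without 1 h replicate 2. The CDPK loci OS08G0441100 and OS08G0540400 had log2 differences of 0.13 ± 0.22 and 0.07 ± 0.18 (SE; FDR = 0.74 and 0.82, limma-trend), and the second turned negative with median-of-ratios factors and without 6 h replicate 2.

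The loci that were higher or lower at 6 h were then followed at 12 and 24 h. The 1248 loci higher with all 3 scalings were, at the median, 0.09 below unfed leaves at 12 h and 0.08 above them at 24 h on the log2 scale, beside -0.03 and 0.03 for all OS loci. The 890 lower loci stood at 0.06 at 12 h and -0.03 at 24 h. These loci were DEGs in both directions in comparisons of 12 h and of 24 h with 0 h. Those comparisons share the 0 h libraries with each other. Their means rest on none of the 1 h and 6 h libraries, but all 20 libraries entered the same fit and set the spread of each locus, so loci with a small spread are more readily called in every comparison. Of the 1248 loci, 92 (7.37%) were higher and 277 (22.2%) lower at 12 h than at 0 h, beside 6.46% and 9.81% of all OS loci. At 24 h, 311 (24.9%) were higher and 192 (15.4%) lower than at 0 h, beside 14.4% and 8.94%. Of the 890 loci lower at 6 h, 201 (22.6%) were higher and 166 (18.7%) lower at 12 h, and 143 (16.1%) were higher and 198 (22.2%) lower at 24 h. With median-of-ratios factors the shares kept this order: of the 1248 loci, 9.78% were higher and 20.7% lower at 12 h, and 23.8% were higher and 19.0% lower at 24 h, beside 8.46%, 7.66%, 13% and 11% of all OS loci.

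**Figure D5:**
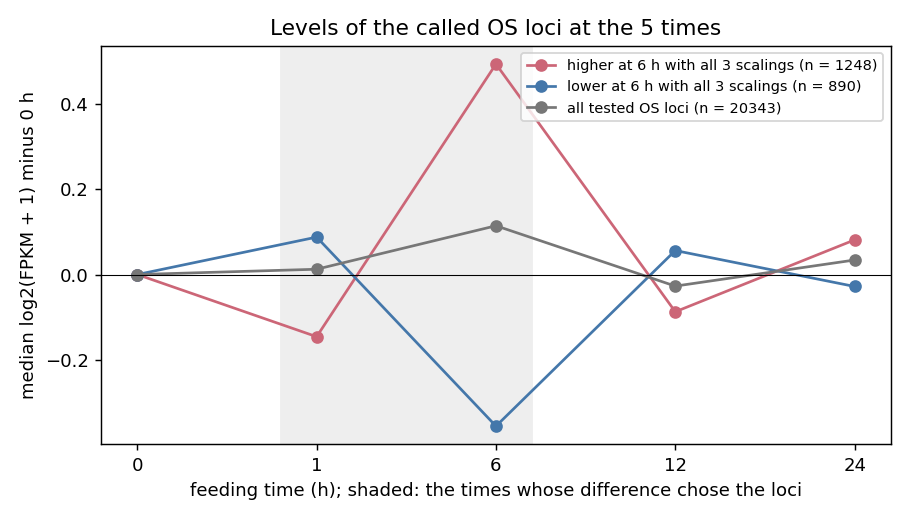
Median over loci of the mean log2(FPKM + 1) minus that of unfed leaves at each feeding time, for the 1248 OS loci higher and the 890 lower at 6 h than at 1 h with all 3 scalings and for all 20343 tested. The loci were chosen on the difference between the shaded times, and at 12 and 24 h both sets are within 0.09 of unfed leaves.

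Whether the same step occurs later in feeding was tested by setting the difference between 6 h and 1 h against that between 24 h and 12 h, which uses other libraries. At 395 OS loci (1.94%) the step from 1 h to 6 h was more positive than that from 12 h to 24 h, and at 320 (1.57%) it was more negative (limma-trend, FDR under 0.05). With median-of-ratios factors these were 308 (1.51%) and 380 (1.87%). The counts fell to 254 and 210 without 6 h replicate 4, and the first fell to 249 without 24 h replicate 4. The step from 12 h to 24 h itself gave 490 higher (2.41%) and 133 lower (0.654%) OS loci. The difference of steps was 2.55 for OS09G0128400, -3.89 for OS02G0758000 and -2.72 for OS01G0840100. These loci were chosen for their change from 1 h to 6 h, which is part of this difference, so the values are a description. None of the 16 named loci differed between the steps at this threshold (lowest FDR = 0.28, limma-trend). OsWRKY53 had log2 differences of 0.83 from 1 h to 6 h and 1.18 from 12 h to 24 h (limma-trend, FDR = 0.018 for the later step). JAZ OS09G0439200 had 1.28 and 0.90 (FDR = 0.14), and JAZ OS03G0180900 had 1.80 and 1.97 (FDR = 0.056). The steps lay further apart at JAZ OS03G0181100 (0.46 and 2.08), OsMPK3 (0.67 and 1.25) and OsWRKY24 (0.21 and 1.04). The SE of the difference of steps was 0.35 to 0.91 at these loci, so the lack of a call does not show equal steps.

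Outside the OS gene models, 3004 loci with EPl identifiers were tested. Of these 59 were higher and 48 lower at 6 h, with a median log2 difference of 0.02. Among 701 identifiers with none of the prefixes OS, EPl and ENSRNA, 46 were higher and 17 lower, with a median log2 difference of 0.08. Of 20343 OS loci, 2765 (13.6%) were higher and 890 (4.37%) lower, which are larger shares than in either of these classes. The classes were not matched for expression level, on which the calls depend. Among OS loci under 1 FPKM in unfed leaves, 7.97% were higher and 0.441% lower. The part of level in the difference between classes was not tested.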

How the data were processed

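RNA-seq libraries were mapped by the authors to IRGSP-1.0 with HISAT2 2.09 and counted per gene with featureCounts 1.5.0-p3, and the deposited values are FPKM for 92858 identifiers in each of 20 libraries. The authors' own test used DESeq2, which was not run here. Dividing FPKM by the worth of 1 fragment gave whole fragments (tolerance 0.01) at 35755 of 35755 identifiers above 0, and 17796509 to 22090111 fragments on genes per library. The worth of 1 fragment was fitted for each identifier so that its values came out whole, so this wholeness is not a check of the fit. Counting error limits the precision of low loci.

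A pseudocount of 1 was added before log2, and identifiers with at least 0.5 FPKM in at least 4 of 20 libraries were tested (24058). R 4.3.3 with limma 3.58.1 fitted all 20 libraries together (15 residual degrees of freedom), with Benjamini-Hochberg adjustment over all identifiers. Library measures had exact permutation tests (Python 3.11.15, scipy 1.17.1). Alternatives were a pseudocount of 0.1, no filter, at least 10 fragments per library, the 8 libraries alone, median-of-ratios or upper-quartile factors, limma-voom on recovered fragments, a replicate block, a log2 difference over 1, and each library left out.

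The named loci were the 9 in the paper's text, 8 labelled in its JA pathway scheme (added outside the rule, after values were known), and the 2 largest rises and falls with at least 10 fragments on average and no overlap. Comparison, members and lists were chosen with earlier results of these data known. The files give identifiers only, and a RefSeq table (assembly ASM3414082v1) did not match them, so pathway lists, leaf markers, sequences and promoter motifs were not used here.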

Additional observations from a re-analysis of the deposited data

Results flagged for a closer look

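At 1 h and 6 h, 50 groups of 4 libraries were examined, for the 17 loci named by the study, the 4 loci with the largest changes and 4 library measures. In 2 of them a library lay far from the other three, and chance gives about 1 in 20. LOX OS02G0194700 at 1 h had 1 library, replicate 2, at 300.9 FPKM with the others at 201.4 to 207.5 (gap over range 0.939). CaM OS03G0319300 at 6 h had replicate 2 at 377.2 FPKM with the others at 309.1 to 314.7 (gap over range 0.917). The step from 1 h to 6 h differed from the step from 12 h to 24 h, by limma-trend, at 395 OS loci in the positive and 320 in the negative direction. Among loci chosen for their change from 1 h to 6 h, which is part of this difference, the difference of steps on the log2 scale was 2.55 for OS09G0128400, -3.89 for OS02G0758000 and -2.72 for OS01G0840100. The causes of these differences were not tested.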

How the results depend on the processing

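Scaling decided the balance of DEGs. OS loci higher at 6 h numbered 2765 as deposited, 1248 with median-of-ratios and 1524 with upper-quartile factors, and 224 with a log2 difference over 1. Lower loci numbered 890, 1689 with median-of-ratios factors and 52 with a log2 difference over 1. Without each library in turn the counts were 1743 to 3666 higher and 677 to 945 lower, and for the difference of steps 249 to 526 more positive and 210 to 312 more negative. The library median shift of 0.105 was 0.0883 to 0.120 without each library, where 3 against 4 libraries cannot reach an exact permutation p below 0.057.

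Across all tested identifiers, replicate numbers showed little pairing of the libraries. Same-numbered deviations at 1 h and 6 h correlated at 0.05, -0.07, 0.10 and -0.06, and 2 of 4 libraries matched their own number best. A pairing at the named loci alone was not tested. With the replicate number as a block, 2654 OS loci were higher and 861 lower, and 350 and 279 differed between steps. Among 340 results for the named loci under the alternatives, 36 lost the call, 1 gained it and 7 changed sign, all at loci that were not called. The CDPK locus OS08G0540400 (0.07) became -0.023 with median-of-ratios factors and -0.058 without 6 h replicate 2 (range without each library -0.058 to 0.166). OsWRKY24 (0.21) became -0.015 without 6 h replicate 2 (range -0.015 to 0.545). OsWRKY45 (0.06) became -0.069 with median-of-ratios and -0.031 with upper-quartile factors, -0.01 without 1 h replicate 2 and -0.067 without 6 h replicate 2 (range -0.067 to 0.212). Depth limits the low loci, such as JAR OS01G0221000 with 13 to 39 fragments.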

Other observations

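Among the 16 named loci that were tested, replicates 2 and 3 were the 2 highest libraries for 9 loci at 6 h, 7 at 1 h and 10 at 24 h, but for 1 at 0 h and 0 at 12 h. The same count over all OS loci was not made. Over all tested identifiers, replicates 2 and 3 also had the highest medians of the 6 h libraries (0.133 and 0.120 relative to the 1 h mean). At 1 h they had the lowest medians (-0.032 and -0.041). AOC OS03G0438100 had 340.7 and 350.9 FPKM in 24 h replicates 2 and 3 and 197.2 and 244.8 FPKM in 24 h replicates 1 and 4, and JAZ OS03G0180900 had 148.9 and 199.0 FPKM beside 41.0 and 79.4. The labels do not say that a replicate number marks a shared plant, larva, batch or day, and the cause was not tested.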
